A study of Mus musculus with 5 samples.

Results

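The RNA of Ba/F3 cells labelled WT was compared with that of Ba/F3 cells labelled PMSCV, 1 library of each. Ba/F3 is a mouse pro-B cell line that grows only while interleukin-3 is supplied, and it is widely used to find out whether an introduced gene can replace that signal. The members of the comparison are the 1547 genes whose mean read count over the 5 libraries of the series was at least 20, out of 50867 rows in the table, of which 16237 held a count in any library. Together they carried 84.2% of the counts in PMSCV and 86.5% in WT.

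All 5 libraries were made from total RNA of the same cell line after infection with a lentivirus, and they differ by the construct named in the label. PMSCV is the name of a retroviral expression vector and stands as the reference. WT is used as the label gives it, since the labels do not say which gene or form it stands for. The other 3 libraries, WT_K118R, S_PXT1 and S_PXT1_K118R, are given beside the comparison as levels. The labels do not say whether the infected cells were a clone or a pool, whether interleukin-3 was present at harvest, or how long after infection the RNA was taken. Each label has 1 library, so no difference has a replicate check and no p-value is given.

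By way of background, the interleukin-3 receptor of such cells signals through the kinase JAK2 to the transcription factor STAT5, and in parallel through RAS to the kinase ERK. STAT5 and ERK targets include survival proteins of the BCL2 family and feedback inhibitors such as the SOCS, SPRED and DUSP proteins. The series title concerns the stability of an oncofusion mRNA in childhood leukaemia. Proteins that bind, splice, cleave or degrade mRNA are therefore described here next to the blood-cell genes.

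The total was 266905 counts in PMSCV and 351693 in WT, against 250409 to 347661 in the other 3 libraries. After scaling by the trimmed mean of M values (TMM), 1 count was worth 3.56 CPM (the count scaled to the library size) in PMSCV and 2.92 CPM in WT. PMSCV held counts for 11492 genes, WT for 11712 and WT_K118R for 11504, but S_PXT1 for 7393 and S_PXT1_K118R for 7044. The table names human genes with human coordinates although the cells are mouse, so a low count can mean that few mouse reads match a human gene model, and levels are compared between libraries only. PXT1 was at 0 counts in every library, and a count of 0 allows up to 3, so no gene of the constructs checks the labels here.

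The cell type was checked against 30 genes of the B lineage. IKZF1 and POU2F2, transcription factors of lymphoid cells, and BTK, a kinase of B-cell signalling, reached a mean count of 20. The other 27 did not, and 13 had 0 counts in all 5 libraries, among them CD79A, CD79B, VPREB1, IGLL1, RAG1 and RAG2. PAX5 and EBF1, which define B-cell identity, had 0 and 1 counts in PMSCV and 0 in WT. The defining markers of the labelled B-lineage identity were thus at or near 0 in these counts.

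Most genes lay close to each other in the 2 libraries. WT was at least 2-fold higher than PMSCV for 43 genes (2.78% of those compared) and at least 2-fold lower for 41 (2.65%), and 1463 genes, or 94.6%, lay within 2-fold. Counts of listed genes past 2-fold are given below beside these shares, and in a list of few genes a count of 0 or 1 does not set the list apart from them. The median log2 ratio over the 1547 genes was 0.11, and the central 80% of genes ran from -0.40 to 0.52. The share past 2-fold went down as the count went up. It was 9.28% of 668 genes with a mean count of 20 to 50, 3.74% of 374 genes at 50 to 100, 1.69% of 414 genes at 100 to 500 and 1.10% of 91 genes above that. Counting error is wide at the low end: the upper bound of the 95% interval of a ratio was 2.89 times its lower bound at the median of the lowest group and 1.22 times at the median of the highest. The interval excluded 1 for all 43 higher genes and for 40 of the 41 lower ones, the exception being SLC7A5 with 11 counts in PMSCV and 6 in WT. The same counts set both the ratio by which these genes were picked and its interval, so nothing further is read from this. The most extreme ratios came from genes with few counts in either library, and 10 of the higher and 8 of the lower genes reached a mean of 20 only through the library in which they were high.

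**Figure D1:**
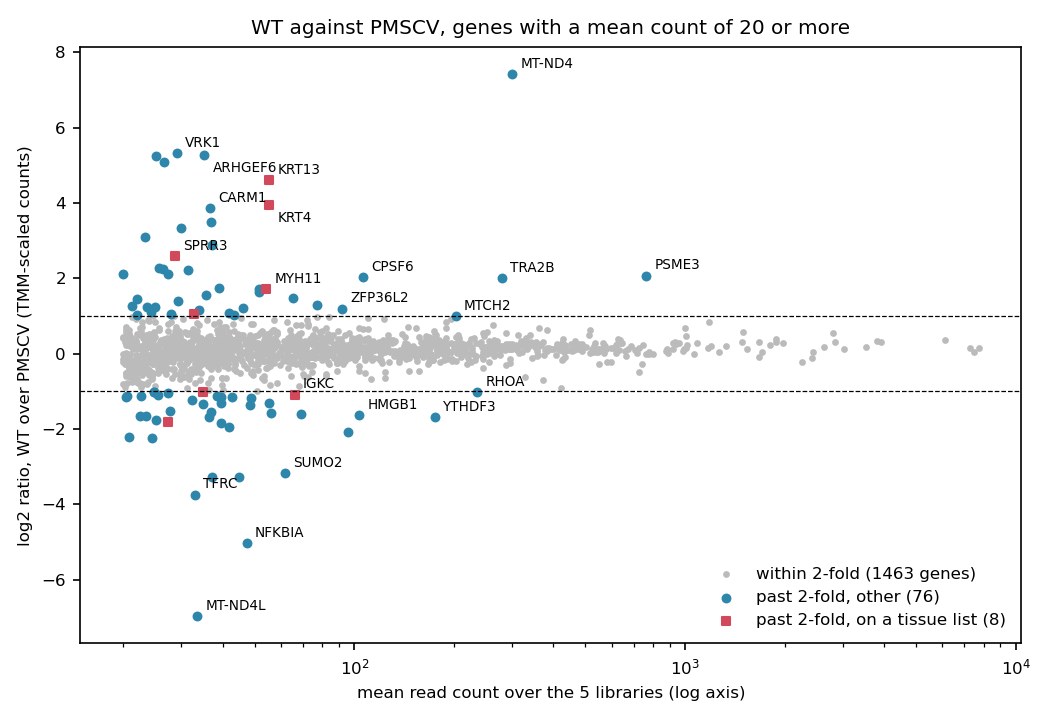
Each point is a gene with a mean count of 20 or more; the horizontal axis is its mean read count over the 5 libraries (log axis) and the vertical axis the log2 ratio of WT over PMSCV from TMM-scaled counts, with dashed lines at 2-fold. Grey points are the 1463 genes within 2-fold, blue circles the 76 other genes past it and red squares the 8 past it that belong to a tissue list, and the points past 2-fold thin out to the right, where 1 gene above a mean of 500 is left.

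Genes of cytokine signalling stood at similar levels in both libraries, with SOS1 as the exception. Of 29 genes of the interleukin-3 receptor, JAK-STAT5 and their targets, 4 reached a mean count of 20, and 1 was lower with WT and 0 were higher. Their median log2 ratio was -0.12, against 0.11 over all genes compared. STAT5B, the signal transducer that JAK2 activates, had 41 counts in PMSCV and 48 in WT, beside 52 in WT_K118R, 34 in S_PXT1 and 39 in S_PXT1_K118R. STAT3, a related transducer, had 27 in PMSCV and 29 in WT. Neither stood apart in any direction, and the ratio for STAT5B was 1.04-fold lower (95% interval 0.67 to 1.61). SOS1, the exchange factor that loads RAS with GTP after receptor activation, had 37 counts in PMSCV and 21 in WT, beside 26 in WT_K118R, 21 in S_PXT1 and 22 in S_PXT1_K118R. Scaled, SOS1 was highest in PMSCV at 132 CPM and lowest in WT at 61.4 CPM, with 77.1 to 86.5 CPM in the other 3. The difference was 2.14-fold lower with WT (1.22 to 3.85). The receptor chains could not be followed, since IL3RA and CSF2RA had 0 counts in all 5 libraries, CSF2RB had 1 in PMSCV and 0 in WT, and JAK2 had 0 throughout. All 29 genes together summed to 304 counts in PMSCV and 333 in WT, a ratio of 0.90 (0.77 to 1.06).

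Survival genes of the BCL2 family lay within 2-fold. BCL2L1, a STAT5 target whose product BCL-XL blocks cell death, had 73 counts in PMSCV and 89 in WT, beside 90 in WT_K118R, 100 in S_PXT1 and 8 in S_PXT1_K118R. PMSCV and WT were level, at a ratio of 1.0 (0.73 to 1.39). BCL2, a related survival protein, had 65 counts in PMSCV and 46 in WT and was 1.72-fold lower (1.16 to 2.56). BIRC6, a large ubiquitin ligase that inhibits caspases, had 66 and 153 and was 1.91-fold higher (1.42 to 2.58). These genes therefore had intervals that excluded 1, in opposite directions, without reaching 2-fold. PDCD5, a protein linked to cell death that missed the mean of 20, had 23 counts in PMSCV and 0 in WT, with 28, 29 and 16 in WT_K118R, S_PXT1 and S_PXT1_K118R. PDCD5 was at least 9.32-fold lower with WT, with the count of 0 set to a floor of 3. The 30 genes of the list summed to a ratio of 0.98 (0.85 to 1.13).

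NFKBIA had the lowest ratio of any gene outside a locus of overlapping models. NFKBIA (ENSG00000100906, chromosome 14, 35401511 to 35404749 of the table, in a genome build that the sources used here do not name) encodes the inhibitor that holds NF-kB in the cytoplasm, and NF-kB itself induces it. It had 80 counts in PMSCV and 3 in WT, beside 49 in WT_K118R, 104 in S_PXT1 and 0 in S_PXT1_K118R. WT and S_PXT1_K118R were near 0, and the other 3 libraries were not. With WT the gene was 32.4-fold lower than with PMSCV (10.7 to 161). The other 3 pathway genes that reached a mean of 20 were level. TAB2, an adaptor of the kinase TAK1, had 234 counts in PMSCV and 256 in WT. CHUK, a kinase that phosphorylates the inhibitor, had 55 and 59, and MAP3K7, which is TAK1, had 39 and 44. Of these 4 genes 1 was lower and 0 were higher, beside 2.65% and 2.78% of all genes, and their median log2 ratio was -0.17. Among the genes below a mean of 20, TRAF3, an adaptor that restrains NF-kB signalling, had 16 counts in PMSCV and 2 in WT, beside 3 in WT_K118R, 2 in S_PXT1 and 16 in S_PXT1_K118R. TRAF3 was 9.73-fold lower with WT (2.29 to 87.2), but WT shared its low level with WT_K118R and S_PXT1. All 23 genes summed to 469 counts in PMSCV and 401 in WT, a ratio of 0.70 (0.61 to 0.81), and NFKBIA supplied 80 of the 469 and 3 of the 401.

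SPRED2 was the gene of the ERK-induced list that passed 2-fold. The SPRED proteins inhibit the RAS to ERK cascade and are induced by it. SPRED2 had 14 counts in PMSCV and 50 in WT, beside 46 in WT_K118R, 31 in S_PXT1 and 37 in S_PXT1_K118R. PMSCV was the low library and the other 4 were all higher, and the gene was 2.94-fold higher with WT (1.6 to 5.75). SPRED1, its relative, had 49 counts in PMSCV and 54 in WT and was 1.10-fold lower (0.73 to 1.66). Summed over the family the ratio was 1.33 (0.97 to 1.84), with an interval that includes 1. JUNB, an immediate-early transcription factor, had 43 and 78 counts and was 1.49-fold higher (1.02 to 2.22), and BTG1, an antiproliferative gene, had 71 and 92. Of 4 genes of the ERK-induced list that reached a mean of 20, 1 was higher and 0 were lower. The shares over all genes were 2.78% and 2.65%. The median log2 ratio of the 4 was 0.33. The 28 listed genes summed to 237 counts in PMSCV and 364 in WT, a ratio of 1.26 (1.07 to 1.49).

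Signalling to the actin cytoskeleton held differences in both directions. RHOA, the GTPase that controls actin contraction and leukocyte migration, had 273 counts in PMSCV and 164 in WT, beside 157 in WT_K118R, 305 in S_PXT1 and 278 in S_PXT1_K118R. WT and WT_K118R formed the low pair for RHOA and the other 3 the high group, and WT was 2.02-fold below PMSCV (1.66 to 2.47). RHOB and RHOC held few counts, and the sum of the 3 relatives was 1.92-fold lower (1.59 to 2.33). CDC42, a GTPase of cell polarity, had 696 counts in PMSCV and 875 in WT and was level at 1.03-fold higher (0.93 to 1.14). ARHGEF6, an exchange factor that activates RAC and CDC42, had 1 count in PMSCV and 47 in WT, beside 38 in WT_K118R, 48 in S_PXT1 and 42 in S_PXT1_K118R. Here PMSCV alone was near 0. The ratio for ARHGEF6 was 38.7 (6.61 to 1559), with an upper bound left wide by the single count. ARHGEF1, an exchange factor of RHOA in leukocytes, lay just under the filter at a mean of 19.8. It had 32 counts in PMSCV and 6 in WT, beside 38 in WT_K118R, 0 in S_PXT1 and 23 in S_PXT1_K118R, and was 6.49-fold lower with WT (2.67 to 19.0). LCP1, the actin-bundling protein of leukocytes, had 67 and 101 counts in PMSCV and WT, 117 in WT_K118R and 3 in each of the remaining 2 libraries. Of 5 genes of leukocyte signalling and cytoskeleton that reached a mean of 20, 1 was higher and 1 was lower. The shares over all genes were 2.78% and 2.65%. The median log2 ratio of the 5 was 0.05. SKAP2, an adaptor of leukocyte adhesion below that mean, had 21 counts in PMSCV and 0 in WT, but it was also at 0 in WT_K118R and S_PXT1_K118R. Summed over its 43 genes this list had a ratio of 0.90 (0.83 to 0.97), and 0.71 (0.62 to 0.81) without CDC42.

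BTK was the B-lineage gene past 2-fold. BTK had 10 counts in PMSCV and 29 in WT, beside 11 in WT_K118R, 28 in S_PXT1 and 28 in S_PXT1_K118R. PMSCV and WT_K118R were low and the other 3 libraries level with each other. With WT, BTK was 2.38-fold higher (1.13 to 5.49). Without WT the mean count of BTK was 19.25, under the filter. It was thus compared only through the library in which it was high, and nothing is read from its place past 2-fold. IKZF1 had 27 counts in PMSCV and 31 in WT and was 1.06-fold lower (0.61 to 1.83), and POU2F2 had 27 and 44 and was 1.34-fold higher (0.81 to 2.25). CD24, a surface protein of early B cells that is also found on epithelium, had 4 counts in PMSCV and 21 in WT, 4.32-fold higher (1.46 to 17.3), and at most 3 in each other library. The 30 genes summed to 91 counts in PMSCV and 142 in WT, a ratio of 1.28 (0.98 to 1.69).

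Of 7 transcription factors of blood progenitors at a mean of 20 or more, 0 passed 2-fold in either direction, beside 5.43% of all genes compared, and their median log2 ratio was 0.14. CITED2, a coregulator needed in haematopoietic stem cells, had 450 counts in PMSCV and 602 in WT, 1.10-fold higher (0.97 to 1.25). SPI1, which encodes the myeloid and B-lineage factor PU.1, had 113 counts in PMSCV and 173 in WT, beside 1 in WT_K118R, 139 in S_PXT1 and 128 in S_PXT1_K118R. WT_K118R was the library apart for SPI1, and WT was 1.26-fold above PMSCV (0.99 to 1.61). GATA2, a factor of progenitors and mast cells, had 96 and 128 counts and a ratio of 1.10 (0.83 to 1.44), and LDB1, its partner in transcription complexes, had 74 and 83. All 25 listed genes summed to a ratio of 1.10 (1.01 to 1.19). The sum of 14 mast cell and basophil genes, of which GATA2 alone reached a mean of 20, had a ratio of 1.09 (0.84 to 1.41).

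Markers of other blood cells stayed low. Of 29 neutrophil and monocyte genes 0 reached a mean of 20, and they summed to 45 counts in PMSCV and 76 in WT, a ratio of 1.39 (0.95 to 2.06). S100A9, a calcium-binding protein of neutrophils and of squamous epithelium, supplied 0 of the 45 and 40 of the 76, and without it the ratio was 0.66 (0.41 to 1.04). CHI3L1, a secreted glycoprotein of macrophages, went the other way with 13 counts in PMSCV and 0 in WT. The 18 erythroid and megakaryocyte genes summed to 2 counts in both PMSCV and WT. The 20 T and NK cell genes summed to 4 counts in PMSCV and 13 in WT.

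Of 20 antigen presentation genes 2 reached a mean of 20, B2M and CD74, and neither passed 2-fold. Interferon-stimulated genes were counted too rarely for single genes to be compared. B2M, the light chain of class I molecules, had 61 counts in PMSCV and 62 in WT. CD74, the invariant chain of class II molecules, had 19 counts in PMSCV and 46 in WT, beside 58 in WT_K118R and 0 in both S_PXT1 libraries. CD74 lay just outside the limit at 1.99-fold higher (1.14 to 3.6). The 20 genes of antigen presentation summed to 172 counts in PMSCV and 229 in WT, a ratio of 1.09 (0.89 to 1.34). Without B2M the ratio was 1.24 (0.97 to 1.59). Of 38 interferon-stimulated genes 0 reached a mean of 20. ADAR, an RNA-editing enzyme, had 20 counts in PMSCV and 22 in WT. The 38 genes summed to 122 counts in PMSCV and 92 in WT, beside 189 in WT_K118R, 37 in S_PXT1 and 16 in S_PXT1_K118R, so WT lay within the range of the other libraries. The ratio of WT over PMSCV was 0.62 (0.47 to 0.82).

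TFRC set PMSCV apart from every other library. TFRC (ENSG00000072274, chromosome 3, 196027183 to 196082189), the transferrin receptor by which dividing cells take up iron, had 132 counts in PMSCV and 12 in WT, beside 12 in WT_K118R, 5 in S_PXT1 and 4 in S_PXT1_K118R. The other 4 libraries formed a low group and PMSCV did not overlap it. With WT the gene was 13.4-fold lower (7.41 to 26.5). Without PMSCV its mean count was 8.25, so it passed the filter of 20 only through the library in which it was high. The ferritin chains that store iron were level, with FTH1 at 85 counts in PMSCV and 86 in WT and FTL at 52 and 48. PCBP1 and PCBP2, RNA-binding proteins that also deliver iron to ferritin, were 1.24-fold (1.18 to 1.31) and 1.23-fold higher (1.18 to 1.29). Of 5 iron-handling genes at a mean of 20 or more, 1 was lower and 0 were higher, beside 2.65% and 2.78% of all genes. The lower gene was TFRC, so nothing is read from the count. The median log2 ratio of the 5 was -0.27.

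**Figure D2:**
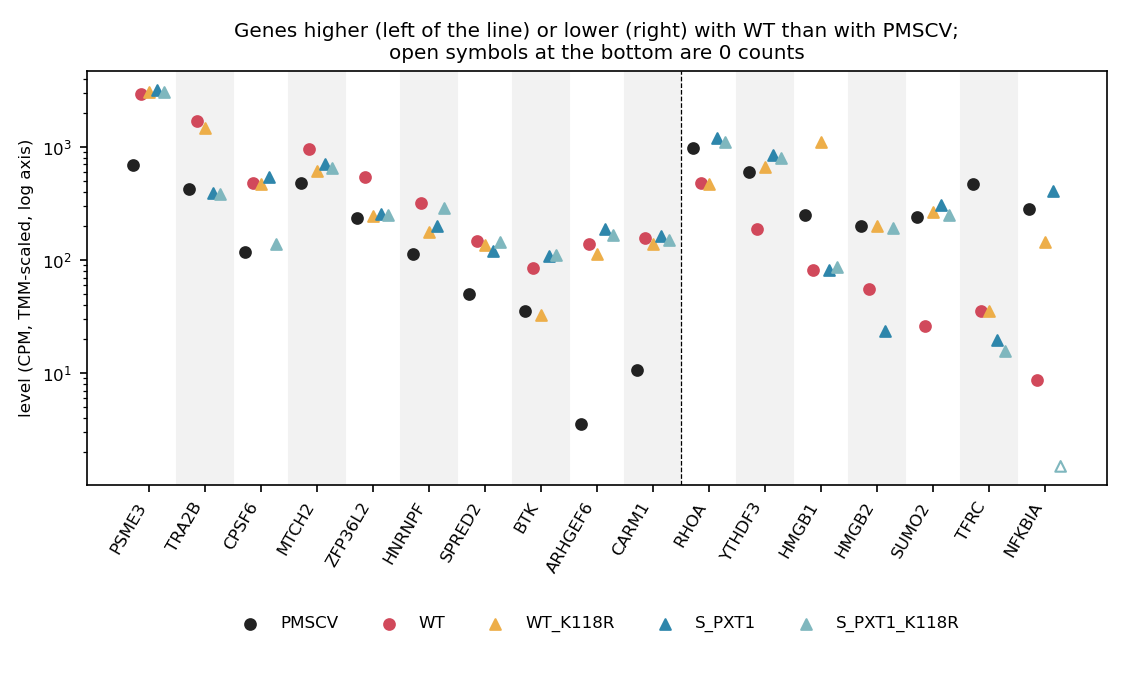
The level of 17 genes (TMM-scaled CPM, log axis) is drawn for each of the 5 libraries, with black circles for PMSCV, red circles for WT and triangles for the other 3, genes higher with WT to the left of the dashed line and genes lower with WT to its right. PSME3, ARHGEF6 and CARM1 show PMSCV below all other symbols, TFRC shows PMSCV above them, SUMO2 and YTHDF3 show WT below them, and the open triangle at the bottom is the count of 0 for NFKBIA in S_PXT1_K118R.

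Among the genes with at least 100 counts on average, 5 were higher with WT and 3 lower, out of 505. PSME3 (ENSG00000131467, chromosome 17, 42824385 to 42843758) encodes the PA28-gamma activator of the nuclear proteasome. It had 194 counts in PMSCV and 994 in WT, beside 1025 in WT_K118R, 814 in S_PXT1 and 781 in S_PXT1_K118R. PMSCV was the low library at 690 CPM, and the other 4 lay between 2907 and 3173 CPM. With WT, PSME3 was 4.21-fold higher (3.61 to 4.94). The core and lid of the proteasome did not share the difference: PSMB7, a catalytic subunit, had 282 counts in PMSCV and 418 in WT, 1.22-fold higher (1.05 to 1.42), and PSMD14, the deubiquitinase of the lid, had 240 and 324. Of 11 proteasome genes 1 was higher and 0 were lower, beside 2.78% and 2.65% of all genes. The sum over 37 proteasome genes went from a ratio of 1.41 (1.33 to 1.49) to 1.08 (1.02 to 1.15) without PSME3.

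Among proteins that splice pre-mRNA, TRA2B was the gene past 2-fold. TRA2B (ENSG00000136527, chromosome 3, 185915906 to 185938136), an SR-like protein that activates exons, had 119 counts in PMSCV and 580 in WT, beside 498 in WT_K118R, 100 in S_PXT1 and 97 in S_PXT1_K118R. WT and WT_K118R were high and the other 3 libraries low, with no overlap. With WT it was 4.01-fold higher (3.29 to 4.92). Its relative TRA2A had 50 counts in PMSCV and 47 in WT, and the pair summed to a ratio of 3.05 (2.57 to 3.64). SRSF1, the founding SR protein, had 1056 and 1331 counts and a ratio of 1.04 (0.96 to 1.12). SF3B1, the core splicing factor mutated in myeloid neoplasms, had 609 and 815 and a ratio of 1.10 (0.99 to 1.22). Of 32 splicing regulators 1 was higher and 0 were lower, beside 2.78% and 2.65% of all genes, and their median log2 ratio was 0.15.

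In cleavage and polyadenylation, CPSF6 was the gene past 2-fold. CPSF6, a subunit of cleavage factor I that sets the choice of poly(A) site, had 33 counts in PMSCV and 164 in WT, beside 159 in WT_K118R, 140 in S_PXT1 and 35 in S_PXT1_K118R. PMSCV and S_PXT1_K118R were low and the other 3 were high, and WT was 4.09-fold above PMSCV (2.80 to 6.14). CPSF7, which can take its place in the complex, had 41 and 74 counts and was 1.48-fold higher (1.0 to 2.23). CPSF6 and CPSF7 together had a ratio of 2.64 (2.03 to 3.48). NUDT21, the subunit that binds RNA, had 42 and 60. Of 10 genes of the list 1 was higher and 0 were lower, beside 2.78% and 2.65% of all genes. The median log2 ratio of the 10 was 0.39, against 0.11 over all genes. PABPN1, the nuclear poly(A)-binding protein, was 1.58-fold higher (1.20 to 2.10).

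Genes of mRNA stability and of the readers of methylated mRNA held 1 higher and 3 lower genes among 41. The shares over all genes were 2.78% higher and 2.65% lower. The median log2 ratio of the 41 genes was 0.15. YTHDF3 (ENSG00000185728, chromosome 8, 63168553 to 63212786), which binds N6-methyladenosine in mRNA, had 168 counts in PMSCV and 64 in WT, beside 222 in WT_K118R, 216 in S_PXT1 and 204 in S_PXT1_K118R. WT alone was low. It was 3.19-fold below PMSCV (2.38 to 4.33). YTHDF2, the relative that recruits deadenylases, had 137 counts in PMSCV and 218 in WT but 5 in S_PXT1_K118R, and over the 3 YTHDF genes the ratio was 0.76 (0.65 to 0.90). Reads that fit more than 1 relative could be assigned differently between libraries, and this was not tested.

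The ZFP36 proteins bind AU-rich elements and promote decay of the mRNA, and their members went in opposite directions. ZFP36L2 had 66 counts in PMSCV and 184 in WT, beside 82 in WT_K118R, 65 in S_PXT1 and 63 in S_PXT1_K118R. WT alone was high, 2.29-fold above PMSCV (1.72 to 3.09). ZFP36L1 had 55 counts in PMSCV and 31 in WT, beside 56 in WT_K118R, 21 in S_PXT1 and 29 in S_PXT1_K118R, and was 2.16-fold lower with WT (1.36 to 3.47), though both S_PXT1 libraries were also below PMSCV. The 3 relatives summed to a ratio of 1.5 (1.20 to 1.88). ELAVL1, which encodes HuR and protects such mRNAs, had 33 counts in PMSCV and 18 in WT, beside 35 in WT_K118R, 2 in S_PXT1 and 14 in S_PXT1_K118R. It was 2.23-fold lower with WT (1.22 to 4.21). Without PMSCV the mean count of ELAVL1 was 17.25, under the filter of 20. The abundant genes of the list were level: YBX1, a cold-shock protein that packages mRNA, had 6858 and 9237 counts and a ratio of 1.11 (1.07 to 1.14), and PABPC1, the cytoplasmic poly(A)-binding protein, had 6150 and 7673 and a ratio of 1.03 (0.99 to 1.06). CNOT1, the scaffold of the deadenylase complex, had 743 and 1107 and a ratio of 1.23 (1.12 to 1.35).

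Of 40 hnRNP and other RNA-binding genes 1 was higher and 2 were lower, beside 2.78% and 2.65% of all genes. The median log2 ratio of the 40 was 0.07. HNRNPF, a splicing regulator that binds G-rich RNA, had 32 counts in PMSCV and 109 in WT, beside 60 in WT_K118R, 51 in S_PXT1 and 74 in S_PXT1_K118R. PMSCV was lowest and WT highest in counts, and the ratio was 2.80 (1.87 to 4.29). Its relatives HNRNPH1 and HNRNPH2 were level, and the 3 summed to a ratio of 1.10 (1.0 to 1.21). HNRNPU, which binds nuclear RNA and chromatin, had 768 counts in PMSCV and 1679 in WT and was 1.80-fold higher (1.65 to 1.96), short of 2-fold but with a narrow interval. HNRNPK, the most counted member, had 2227 and 3062 and a ratio of 1.13 (1.07 to 1.19). The lower genes, MATR3 and RBM4, lie in loci of overlapping or duplicate models and are described with those.

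Chromatin genes held 2 lower genes and 0 higher ones among 36, beside 2.65% lower and 2.78% higher over all genes. Both were high-mobility-group proteins, which bend DNA and help transcription factors to bind. HMGB1 had 71 counts in PMSCV and 28 in WT, beside 376 in WT_K118R, 21 in S_PXT1 and 22 in S_PXT1_K118R. WT_K118R was the library apart, and WT lay with the S_PXT1 libraries, 3.08-fold below PMSCV (1.97 to 4.96). HMGB2 had 56 counts in PMSCV and 19 in WT, beside 67 in WT_K118R, 6 in S_PXT1 and 49 in S_PXT1_K118R, 3.58-fold lower with WT (2.10 to 6.39). HMGB3 was level at 49 and 57, and the 3 genes summed to a ratio of 0.49 (0.38 to 0.62). CHD4, the helicase of the NuRD complex, had 704 and 854 counts and a ratio of 1.0 (0.90 to 1.10). The median log2 ratio of the 36 genes was 0.08.

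SUMO2, outside the lists but among the 10 lowest ratios, encodes the modifier that is joined to lysines of nuclear proteins. It had 67 counts in PMSCV and 9 in WT, beside 90 in WT_K118R, 79 in S_PXT1 and 64 in S_PXT1_K118R. WT alone was low, by 9.05-fold against PMSCV (4.49 to 20.6). CGGBP1, which binds CGG repeats in DNA, had 56 counts in PMSCV, 7 in WT and 46 to 60 in the others, 9.73-fold lower (4.42 to 25.3). FAM222B had 64 and 8 counts, with 32 to 43 in the others, and was lower by the same 9.73-fold (4.65 to 23.5). WT was below every other library for these 3 genes. ARCN1, a subunit of the COPI vesicle coat, had 43 counts in PMSCV and 11 in WT, beside 31 in WT_K118R, 29 in S_PXT1 and 8 in S_PXT1_K118R. Its low level with WT was thus shared by S_PXT1_K118R. Without PMSCV the mean count of ARCN1 was 19.75, under the filter of 20.

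CARM1, a methyltransferase that modifies histones and splicing factors on arginine, had 3 counts in PMSCV and 53 in WT, beside 47 in WT_K118R, 42 in S_PXT1 and 38 in S_PXT1_K118R. The ratio was 14.5 (4.71 to 72.7). MAP11, a protein of the mitotic spindle, had 4 counts in PMSCV and 38 to 55 in the other libraries, and PEX13, of the peroxisomal import pore, had 1 and 24 to 41. In these 3 genes PMSCV alone was low. VRK1, a kinase of histones in dividing cells, had 1 count in PMSCV and 49 in WT, beside 62 in WT_K118R, 33 in S_PXT1 and 0 in S_PXT1_K118R, and SLC25A12, the mitochondrial aspartate and glutamate carrier, had 1, 46, 39, 0 and 40 in the same order. Both thus had a low or empty library besides PMSCV. The ratio of WT over PMSCV was 40.3 for VRK1 (6.90 to 1624) and 37.8 for SLC25A12 (6.46 to 1526). Summed with their relatives, the ratio was 7.68 for the VRK genes (3.31 to 21.8) and 8.06 for SLC25A12 with SLC25A13 (3.23 to 25.9). MTCH2, an insertase of the outer mitochondrial membrane, had 134 counts in PMSCV and 326 in WT, beside 206 in WT_K118R, 180 in S_PXT1 and 167 in S_PXT1_K118R. WT was highest for MTCH2, at 2.0-fold above PMSCV (1.63 to 2.47), the smallest ratio counted as higher.

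Vesicle traffic had 3 higher genes and 0 lower ones among 27, beside 2.78% higher and 2.65% lower over all genes. The median log2 ratio of the 27 was 0.18. Without WT the mean counts of RAB7A and AP2A1 were 13.25 and 18.5, under the filter of 20. They entered through the library in which they were high, so nothing is read from the count. RAB7A, the GTPase of late endosomes, had 9 counts in PMSCV and 47 in WT, beside 39 in WT_K118R, 3 in S_PXT1 and 2 in S_PXT1_K118R and was 4.29-fold higher with WT (2.08 to 9.97). ARF1, the GTPase that recruits vesicle coats at the Golgi, had 18 counts in PMSCV and 49 in WT, beside 36 in WT_K118R, 31 in S_PXT1 and 36 in S_PXT1_K118R, 2.24-fold higher (1.28 to 4.08). AP2A1, a subunit of the clathrin adaptor, had 4 counts in PMSCV and 42 in WT, beside 5 in WT_K118R, 36 in S_PXT1 and 29 in S_PXT1_K118R, 8.64-fold higher (3.13 to 33.2), and summed with AP2A2 the ratio was 4.29 (2.08 to 9.97). The 3 genes had different partners at the low end: the S_PXT1 libraries for RAB7A, none for ARF1 and WT_K118R for AP2A1. The well-counted RAB genes were nearer to level, with RAB1A, a GTPase of early secretion, at 260 and 512 counts, 1.62-fold higher (1.39 to 1.89), and RAB14 at 283 and 375, 1.09-fold higher (0.93 to 1.28). In the endoplasmic reticulum TXNDC5, a disulphide isomerase, had 21 counts in PMSCV and 53 in WT, 2.08-fold higher (1.23 to 3.62), but its locus of overlapping models summed to 37 and 59, a log2 ratio of 0.39. DERL1 and SERP1, of protein quality control in the same compartment, had 21 and 40 counts in PMSCV and 80 and 119 in WT.

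Most housekeeping genes that reached a mean of 20 lay within 2-fold. Of 38 cytosolic ribosomal protein genes, 16 chaperones, 9 glycolytic genes, 7 nuclear genes of the respiratory chain, 8 general transcription factors and 4 genes of the cell cycle and DNA replication, 0 passed 2-fold in either direction. Their median log2 ratios were 0.04, 0.01, -0.05, 0.19, 0.23 and -0.08. Summed over all members, these lists had ratios of 1.19, 1.01, 1.0, 1.04, 1.04 and 0.97 in the same order. The sums of translation factors and of tubulin and actin genes had ratios of 1.19 and 1.20. RPLP0, of the ribosomal stalk, had 2032 and 3587 counts and was 1.45-fold higher (1.37 to 1.53). Without RPLP0 the ribosomal sum had a ratio of 1.03 (0.99 to 1.08). HSPA8, a chaperone, had 123 and 150 counts and a ratio of 1.0 (0.78 to 1.28), and MCM4, of the replicative helicase, had 213 and 250. GAPDH, of glycolysis, had 129 and 143. Of 25 translation factors EIF4A1 was lower and 0 were higher. Of 19 tubulin and actin genes TUBA4A was lower, with 47 counts in PMSCV and 20 in WT. Over all genes compared, 2.78% were higher and 2.65% lower. The alpha-tubulins together summed to 4765 and 7337 counts, a ratio of 1.27 (1.22 to 1.31), opposite in direction to TUBA4A.

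**Figure D3:**
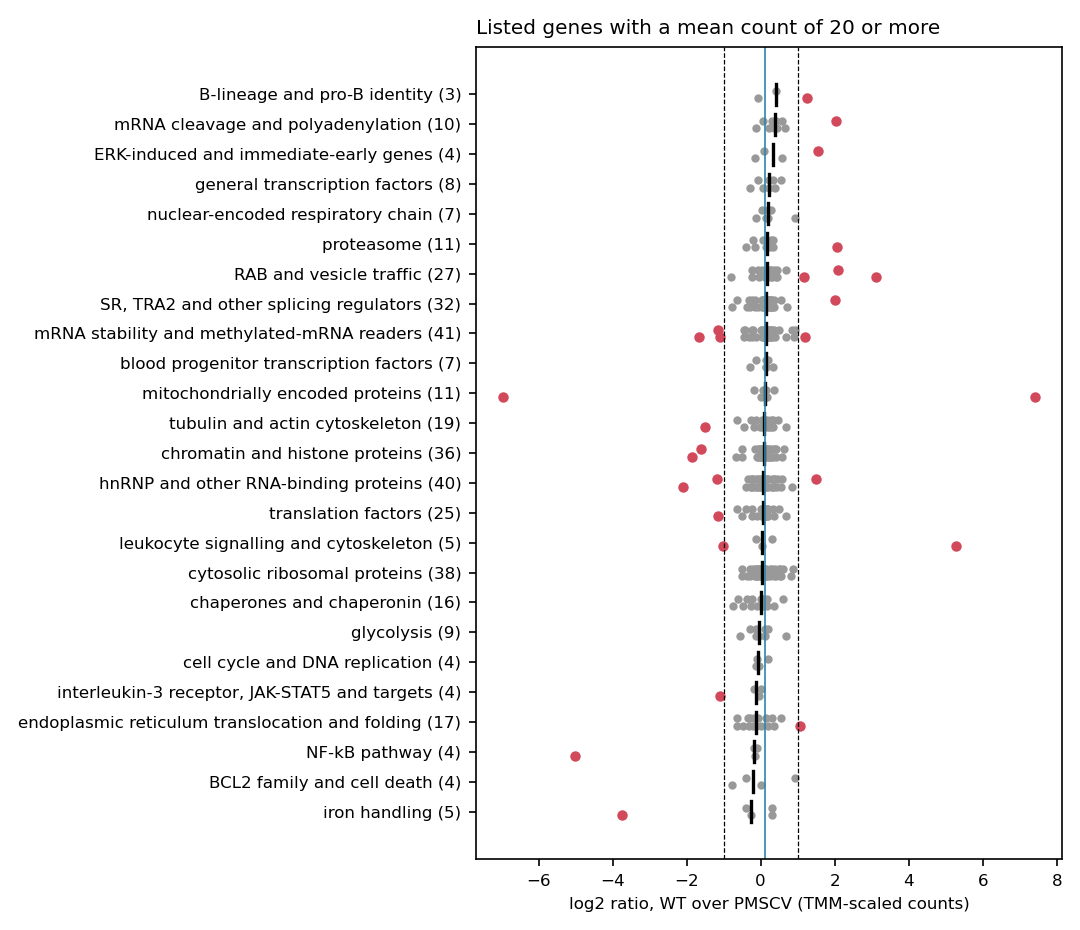
Each point is a listed gene with a mean count of 20 or more, placed by its log2 ratio of WT over PMSCV; the number of such genes stands after the name of the list, red points are past 2-fold (dashed lines), black ticks are list medians and the blue line is the median over all 1547 genes. The lists shown are those other than tissue lists that had at least 3 such genes; their medians lie between -0.27 and 0.42, and a list holds at most 4 red points, as for mRNA stability.

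Several differences were of another size or direction when overlapping gene models were summed. MT-ND4 and MT-ND4L, subunits of respiratory complex I, are neighbouring genes that share a transcript and overlap in sequence. MT-ND4 had 3 counts in PMSCV and 625 in WT, beside 665 in WT_K118R, 2 in S_PXT1 and 203 in S_PXT1_K118R, and MT-ND4L had 103, 1, 0, 63 and 0 in the same order. Each library held counts on 1 of the 2 models with almost none on the other. Their sum was 106 counts in PMSCV and 626 in WT, 4.86-fold higher (3.95 to 6.02), so the ratios of 171 for MT-ND4 (58.4 to 833) and of 125-fold lower for MT-ND4L (22.0 to 4994) do not describe the locus. The remaining mitochondrially encoded genes were level, with MT-CO1 at 896 and 1088 counts and MT-CYB at 253 and 341, and 9 of 11 lay within 2-fold.

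Of the 84 genes past 2-fold, 21 lie in a locus with more than 1 model on the same strand. When such models were summed, 37 of the 43 higher genes were still at least 2-fold higher, and 33 of the 41 lower ones at least 2-fold lower. For 6 lower genes the sum went the other way: MT-ND4L, SENP3, EIF4A1, MATR3, SRCAP and RBM4. EIF4A1, the helicase of translation initiation, had 57 counts in PMSCV and 31 in WT, SENP3, a SUMO protease beside it, had 19 and 5, and the read-through model that joins them had 0 and 66. Their locus held 82 counts in PMSCV and 107 in WT, a log2 ratio of 0.10. MATR3, a nuclear matrix protein, stands on 2 rows, and the row that was lower had 63 counts in PMSCV and 18 in WT while the other had 305 and 545. RBM4, a splicing regulator, had 78 and 42 counts, the read-through model RBM14-RBM4 had 7 and 63, and the locus of 4 models had a log2 ratio of 0.03. SRCAP, a chromatin remodeller, had 50 and 26 counts and an unnamed model on the same strand 0 and 37.

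**Figure D4:**
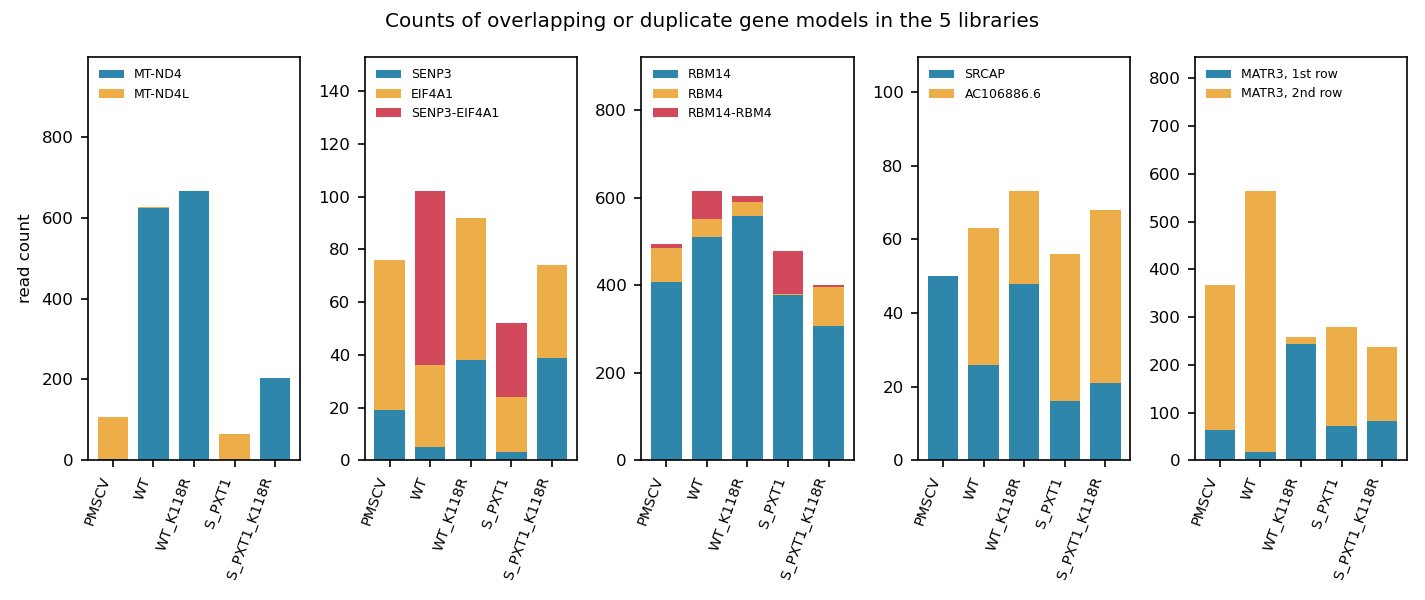
Stacked bars give the read counts of overlapping or duplicate gene models in each of the 5 libraries, with a separate vertical axis for each of 5 loci and colours for the models named in each panel. The total of a bar differs less between PMSCV and WT than its parts do, as in the SRCAP locus at 50 and 63, whereas the MT-ND4 locus keeps a difference, at 106 and 626.

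Some genes were set apart in PMSCV or in WT from all 4 other libraries, which carry other constructs and have 1 library each. Among the 1547 genes, PMSCV was at least 2-fold below each of the other 4 libraries for 13 (0.84%) and at least 2-fold above each for 4 (0.259%). WT was at least 2-fold above each of the others for 6 (0.388%) and below each for 10 (0.646%). All 33 are among the 84 genes past 2-fold, since that is part of the condition, and they leave 24 higher and 27 lower genes for which neither library stood alone. PMSCV stood below for PSME3, SPRED2, ARHGEF6, CARM1, MAP11, PEX13, USP19, COPG2, ABI1, ACTR3C, 2 clone-named models and a mitochondrial pseudogene. It stood above for TFRC, KRT17, IGKC and IGHG2. Of these 4, all but IGKC reached a mean of 20 only through PMSCV, so they had to be high there. WT stood above for ZFP36L2, ANXA1, KRT4, KRT13, SPRR3 and MYH11, and below for YTHDF3, SUMO2, CGGBP1, FAM222B, SRP72, NUDCD3, UHMK1, PTPN12, SLC7A5 and the lower row of MATR3. Of the 6 genes highest in WT, 5 are on a tissue list, and all 5 of these reached a mean of 20 only through WT, so they had to be high there. TRA2B, CPSF6, RHOA, NFKBIA, HMGB1 and BTK are in neither group, because at least 1 further library was on the same side as WT and another on the side of PMSCV.

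Of 32 genes of tissues other than blood that reached a mean of 20, 5 were at least 2-fold higher and 3 lower with WT, beside 2.78% and 2.65% of all genes. Except for IGKC, these 8 reached that mean only through the library in which they were high, so they had to differ, and nothing is read from the count. Squamous epithelium, which lines skin, mouth and oesophagus, is known by keratins and by proteins of the cornified envelope. KRT4 and KRT13, the keratin pair of non-cornified squamous epithelium, had 14 and 9 counts in PMSCV, 262 and 266 in WT, 0 and 1 in WT_K118R, and 0 in both S_PXT1 libraries. WT alone was high for both. KRT4 was 15.4-fold (9.01 to 28.5) and KRT13 24.3-fold higher than with PMSCV (12.6 to 53.7). SPRR3, a cornified-envelope protein of the same epithelium, had 17 counts in PMSCV and 125 in WT, beside 1 in WT_K118R and 0 in the remaining 2, 6.05-fold higher (3.63 to 10.7). ANXA1, an annexin that squamous cells and leukocytes both express, had 39 and 99 counts and was 2.09-fold higher (1.43 to 3.11).

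The other keratins at a mean of 20 or more did not follow. KRT5 had 76 counts in PMSCV and 106 in WT, beside 161 in WT_K118R and 0 in both S_PXT1 libraries, a ratio of 1.15 (0.85 to 1.56). KRT6A, a keratin of activated epithelium, had 58, 83, 176, 0 and 0 counts in the same order, a ratio of 1.18 (0.83 to 1.68). KRT17, a keratin of hair follicles and activated epithelium, was 3.51-fold lower with WT (2.24 to 5.66), with 78 counts in PMSCV and 27 in WT, beside 32 in WT_K118R. KRT14 had 36 counts in PMSCV and 28 in WT, beside 135 in WT_K118R, 1.56-fold lower with WT (0.93 to 2.66). The 83 genes of the list therefore did not move as a block. Of these, 9 reached a mean of 20, of which 4 were higher and 1 lower, and the median of the log2 ratios was 0.37. Their sum over all 83 was 2511 CPM in PMSCV, 5735 in WT, 2635 in WT_K118R, 39.0 in S_PXT1 and 59.0 in S_PXT1_K118R, with 63, 74, 46, 3 and 9 of the genes detected. The ratio of WT over PMSCV was 2.28 (2.09 to 2.49). CRNN, a cornified-envelope gene chosen here after its values were seen, had 69 counts in WT and 0 in every other library. Others went the opposite way: TP63, the transcription factor of basal squamous cells, had 12 counts in PMSCV and 2 in WT, 7.30-fold lower (1.62 to 67.1), GPX2 had 9 and 2, and LY6D had 5 and 0.

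Smooth muscle, the contractile layer of gut, vessels and airways, was represented by MYH11. MYH11, its myosin heavy chain, had 54 counts in PMSCV and 215 in WT, beside 1 in WT_K118R, 1 in S_PXT1 and 0 in S_PXT1_K118R, and was 3.27-fold higher with WT (2.42 to 4.50). It was thus high in WT, lower in PMSCV and near 0 elsewhere. MYL6 and TPM1, which non-muscle cells also express, had 204 and 152 counts in PMSCV and 248 and 178 in WT and were level. DES, ACTG2 and ACTA2, filament and actin genes of muscle named after their values were seen, had 1, 7 and 7 counts in PMSCV and 28, 30 and 24 in WT, each with 8 or fewer in WT_K118R and 0 in S_PXT1. Other genes of the list did not follow: CALD1, an actin-binding protein, had 15 counts in both PMSCV and WT, CAV1, of caveolae, had 9 and 8, and SMTN had 5 in both. The 35 genes summed to 2528 CPM in PMSCV, 3986 in WT, 2321 in WT_K118R, 2893 in S_PXT1 and 2260 in S_PXT1_K118R, a ratio of 1.58 (1.44 to 1.73). In the same order, 27, 34, 25, 10 and 13 of the genes were detected. In S_PXT1, MYL6 and TPM1 held 286 and 166 of the 742 counts of the list. Striated muscle genes summed to a ratio of 1.13 (0.94 to 1.36), and 33 of 45 had 0 counts in all 5 libraries. TPM3 alone supplied 162 of their 207 counts in PMSCV and 241 of 284 in WT. Without TPM3 the ratio was 0.79 (0.51 to 1.22).

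Immunoglobulin genes were lower with WT than with PMSCV and nearly absent elsewhere. IGHG1, a heavy chain of secreted IgG, had 310 counts in PMSCV and 238 in WT, beside 10 in WT_K118R, 1 in S_PXT1 and 2 in S_PXT1_K118R. IGKC, the kappa light chain, had 204, 117, 8, 1 and 0 in the same order, and IGHG2, another heavy chain, had 107, 64, 3, 0 and 0. PMSCV was highest and WT next for all 3, and the ratios were 1.58-fold (1.33 to 1.88), 2.12-fold (1.68 to 2.68) and 2.03-fold lower (1.48 to 2.82). Summed with its overlapping variable segments the IGKC locus had 226 and 137 counts. IGHA1, the heavy chain of mucosal IgA, went the other way with 17 counts in PMSCV and 32 in WT, 1.55-fold higher (0.83 to 2.97). The 24 genes of the list summed to 797 counts in PMSCV and 521 in WT, a ratio of 0.54 (0.48 to 0.60), with 51 in WT_K118R, 5 in S_PXT1 and 3 in S_PXT1_K118R. These are genes of mature, class-switched cells, while CD79A and CD79B were at 0.

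Prostate, connective tissue and simple epithelial genes differed less. KLK3, a prostate protease, had 51 counts in PMSCV and 62 in WT, beside 71 in WT_K118R and 0 in both S_PXT1 libraries, and the 29 prostate genes had a summed ratio of 0.83 (0.71 to 0.96). COL1A1 and COL3A1, fibrillar collagens, had 162 and 132 counts in PMSCV and 142 and 155 in WT, and the 49 genes of fibroblasts, collagen and endothelium had a ratio of 0.91 (0.83 to 0.99). The 32 simple epithelial genes summed to 117 and 123 counts, a ratio of 0.86 (0.67 to 1.12). The tissue lists thus did not share a direction: squamous and smooth muscle sums were higher with WT, immunoglobulin and prostate sums lower. In bulk RNA, fewer cells of a type and less RNA per cell cannot be told apart, and where the tissue-type reads came from, and whether they bear on the blood-cell genes, was not tested.

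**Figure D5:**
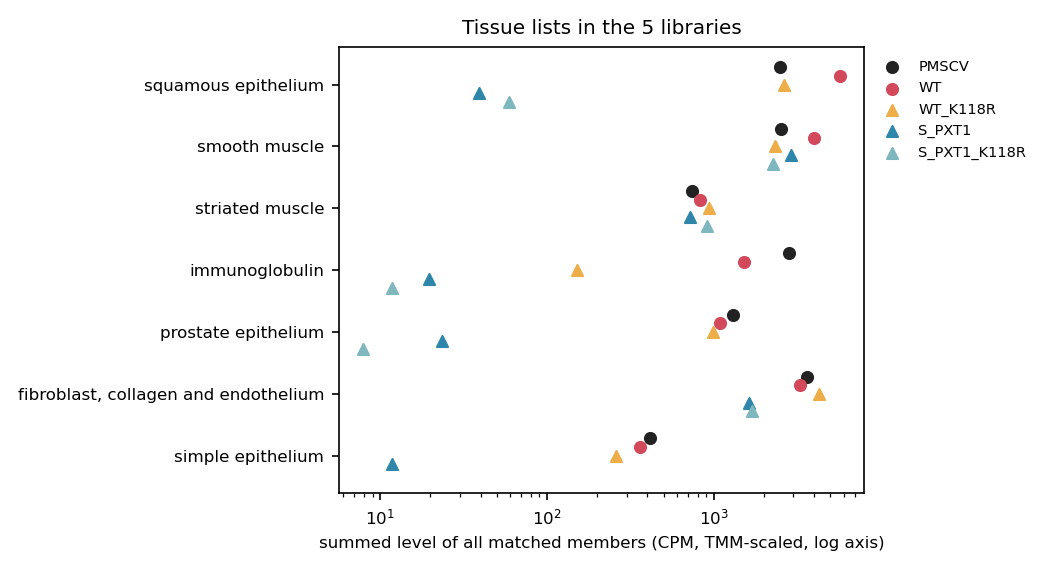
The summed level of all matched genes of each of 7 tissue lists (TMM-scaled CPM, log axis) is drawn for the 5 libraries, with circles for PMSCV and WT and triangles for the other 3. WT lies above PMSCV for squamous epithelium, at 5735 against 2511 CPM, and below it for immunoglobulin; the simple epithelium sum of 0 in S_PXT1_K118R is not drawn.

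Near the limit of 2-fold the choice of side rested on few counts. Just inside were MTCH2 at 2.0-fold higher, NAV1 and NFE2L1 at 2.06-fold higher, RHOA at 2.02-fold lower and BAZ1B and NF1 at 2.03-fold lower. Just outside were CD74 at 1.99-fold, TMEM131 at 1.98-fold and EHD4 at 1.97-fold higher, and BCL9 at 1.98-fold, FYN at 1.96-fold and NFAT5 at 1.94-fold lower. FYN, a SRC-family kinase of leukocytes, had 37 counts in PMSCV and 23 in WT. NF1, the RAS-GTPase activator lost in juvenile myelomonocytic leukaemia, had 35 and 21.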

How the data were processed

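RNA of 5 Ba/F3 libraries was sequenced, 1 for each label, and WT was compared with PMSCV. Per the file headers, the table the authors deposited gives every library 2 columns, the read count of each gene and its FPKM, which divides the count by gene length and library size. Among the tools, the submitters' processing notes list HISAT2 2.2.1, cutadapt 1.9 and FastQC. No source used here names the counting tool, strand setting, genome build or annotation. The deposited FPKM equalled the count over 1 gene length and 1 library factor, within 0.01 on the log2 scale, for at least 99.98% of values compared, so counts were used. There were 0 value columns without a library.

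Library sizes were scaled by TMM over the 5 libraries (edgeR 4.0.16, R 4.3.3). Genes entered at a mean count of 20 or more. Ratios are of scaled counts, with no pseudocount, and carry an exact 95% interval. A count of 0 was set to a floor of 3 counts, 10.7 CPM in PMSCV and 8.77 CPM in WT, and the fold is then written as "at least". Intervals and floors stand for counting error alone. No source used here mentions molecular identifiers, and reads without them are not independent molecules. Past the limit means at least 2-fold. A list is summed over all its matched rows. Models that overlap on 1 strand were summed to a locus, and relatives to a family. The computation was tested on simulated data. DESeq2 1.42.0 size factors were an alternative.

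All genes past 2-fold may be named. Values in all libraries were planned for means of 100 or more, for genes on blood or cell lists, and for the 10 highest and 10 lowest ratios, with the 5 most counted genes of each tissue list and 2 to 4 genes of each other list. For several tissue lists fewer than those 5 genes are given, and genes left out include VCL, ACTN1, IGLC2, STEAP2 and VIM. Read-through, clone and pseudogene models are named as such or only counted. Other names were chosen after their values were seen, namely the B-lineage, receptor, low-count and family genes given with counts. The 39 lists hold 1421 symbols, all matched. Members and lists were chosen with earlier results of these data known. A further gene of the constructs and a few other genes are not reported here.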

Additional observations from a re-analysis of the deposited data

How the results depend on the processing

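No paired analysis was possible because each group held 1 library, and leaving out a replicate could not be run for the same reason. The share of genes at least 2-fold higher and lower, 2.78% and 2.65% (43 and 41 of 1547), depended on the filter and the limit. It was 3.88% and 3.88% at a mean of 10 or more (90 and 90 genes), 1.48% and 1.02% at 50 or more (13 and 9), 0.99% and 0.594% at 100 or more (5 and 3), and 9.94% and 17.3% of the 9590 genes with a ratio when none was filtered (953 and 1661). At 1.5-fold it was 7.63% and 5.75%, and at 3-fold 1.62% and 1.29% (25 and 20). Other scalings, FPKM, pseudocounts, the interval, summed loci, a filter on the 2 libraries alone, and leaving out tissue genes or symbols unknown in mouse gave 35 to 51 higher and 33 to 48 lower genes. Total counts and FPKM moved the median log2 ratio by -0.12, and the higher share of the calls from 51.2% to 42.9% and 42.2%. The NF-kB sum had a ratio of 0.61 in FPKM and 0.51 without TAB2. Without its most counted gene the squamous sum had 2.02, smooth muscle 1.81 and immunoglobulin 0.48, and smooth muscle had 1.41 over genes at a mean of 20 or more. Sums of 3 lists crossed 1: hnRNP genes at 0.995 on total counts and 0.994 in FPKM, chromatin genes at 0.986 on total counts and mitochondrially encoded genes at 0.981 in FPKM. Single genes reversed only when models or relatives were summed. The locus ratio was 4.86 for MT-ND4L, 1.07 for SENP3 and EIF4A1, 1.26 for MATR3, 1.04 for SRCAP and 1.02 for RBM4. The family ratio was 4.86 for MT-ND4L, 1.12 for EIF4A1, 1.26 for MATR3, 1.01 for RBM4, 1.27 for TUBA4A and 1.5 for ZFP36L1. Summing families and keeping mouse symbols were chosen after seeing the data. Of 526 recomputed ratios of named genes 500 stayed within the 95% interval of the reported ratio, and of 228 ratios of list sums 174 did. What caused the other changes was not tested. At 266905 and 351693 counts, the bounds of a ratio lay 2.89-fold apart at the median for genes with a mean of 20 to 50.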
